A study of Equus caballus with 10 samples.

Results

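The genes described here are 10 genes of collagen cross-linking and maturation, *LOX*, *LOXL1*, *LOXL2*, *LOXL3*, *LOXL4*, *PLOD1*, *PLOD2*, *SERPINH1*, *PCOLCE* and *BMP1*. They were chosen by name for their roles, with earlier results of these data known. All 10 were found by symbol among the 29196 genes of the deposited table. The RNA came from adult equine tenocytes, primary cells of the superficial digital flexor tendon of Thoroughbred or Thoroughbred-type horses, cultured for 14 days in 3D gels of bovine type I collagen. Tenocytes of 5 donors each gave 1 library cultured with PF-06650833 and no IL-1β (PF alone) and 1 cultured with both (PF + IL-1β), so there were 5 libraries per group. PF-06650833 blocks IRAK-4, a kinase below the IL-1 receptor, and was added daily at 100 nM to both groups, and IL-1β at 17 ng/ml every few days to 1 of them. Every library therefore contained the inhibitor, and the comparison asked how the genes differed with IL-1β while IRAK-4 was inhibited. Libraries without the inhibitor were not analysed here.

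A collagen chain is modified inside the cell before it is assembled outside it. Lysyl hydroxylases, encoded by the *PLOD* genes, hydroxylate some of its lysines in the endoplasmic reticulum, and the chaperone HSP47, encoded by *SERPINH1*, binds the folded triple helix. Outside the cell the proteinase BMP1 removes the C-propeptide with the help of the enhancer protein PCOLCE, and fibrils can then form. Lysyl oxidases, copper enzymes encoded by *LOX* and *LOXL1* to *LOXL4*, oxidise lysines and hydroxylysines of the fibril, which then join into the covalent cross-links that give tendon its tensile strength.

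With PF + IL-1β, 4 of the 10 genes were lower than with PF alone and 0 were higher by limma (1 gene, *BMP1*, had a positive change at an unadjusted p below 0.05). The genes that fell were 3 of the 5 lysyl oxidases, *LOX*, *LOXL4* and *LOXL2*, and *PCOLCE*. They were 5.16, 4.76, 3.20 and 4.50 times lower, respectively. The lysyl hydroxylases *PLOD1* and *PLOD2*, *SERPINH1*, *BMP1*, *LOXL1* and *LOXL3* did not pass the test. Of all 17992 tested genes, 3.57% were lower and 3.11% higher by the same thresholds, 6.68% together. Over the 10 genes the median log2 fold change was -0.43, with 9 negative values, against -0.0063 over all tested genes. In 3 of the 10 genes the groups did not overlap, against 12.7% of all tested genes. The thresholds were an adjusted p below 0.05, from limma with Benjamini-Hochberg adjustment over all tested genes, and a log2 fold change of 1 or more in either direction, which is a 2-fold difference. With the donor as a replicate block the same 4 genes were lower. In bulk RNA, fewer cells that express a gene and less of its RNA per cell cannot be told apart.

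The values are the deposited log2 values, which are variance-stabilized and normalized between libraries. A gene without reads (0) stands at 3.433. All 10 genes were far above it and passed the filter on low values in every library. Back-transformed normalized counts ranged from 99.6 for *LOXL4* in 1 library to 91292 for *SERPINH1* in another. Summed over all genes, these normalized counts lay between 34358354 and 38755204 per library. The table holds normalized values, so the reads sequenced per library were not recovered from it. *IL6*, a target of IL-1β signalling, was at 4.78 to 9.42 with PF alone and at 13.96 to 16.12 with PF + IL-1β, so the libraries separated by this gene as their labels say.

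**Figure D1:**
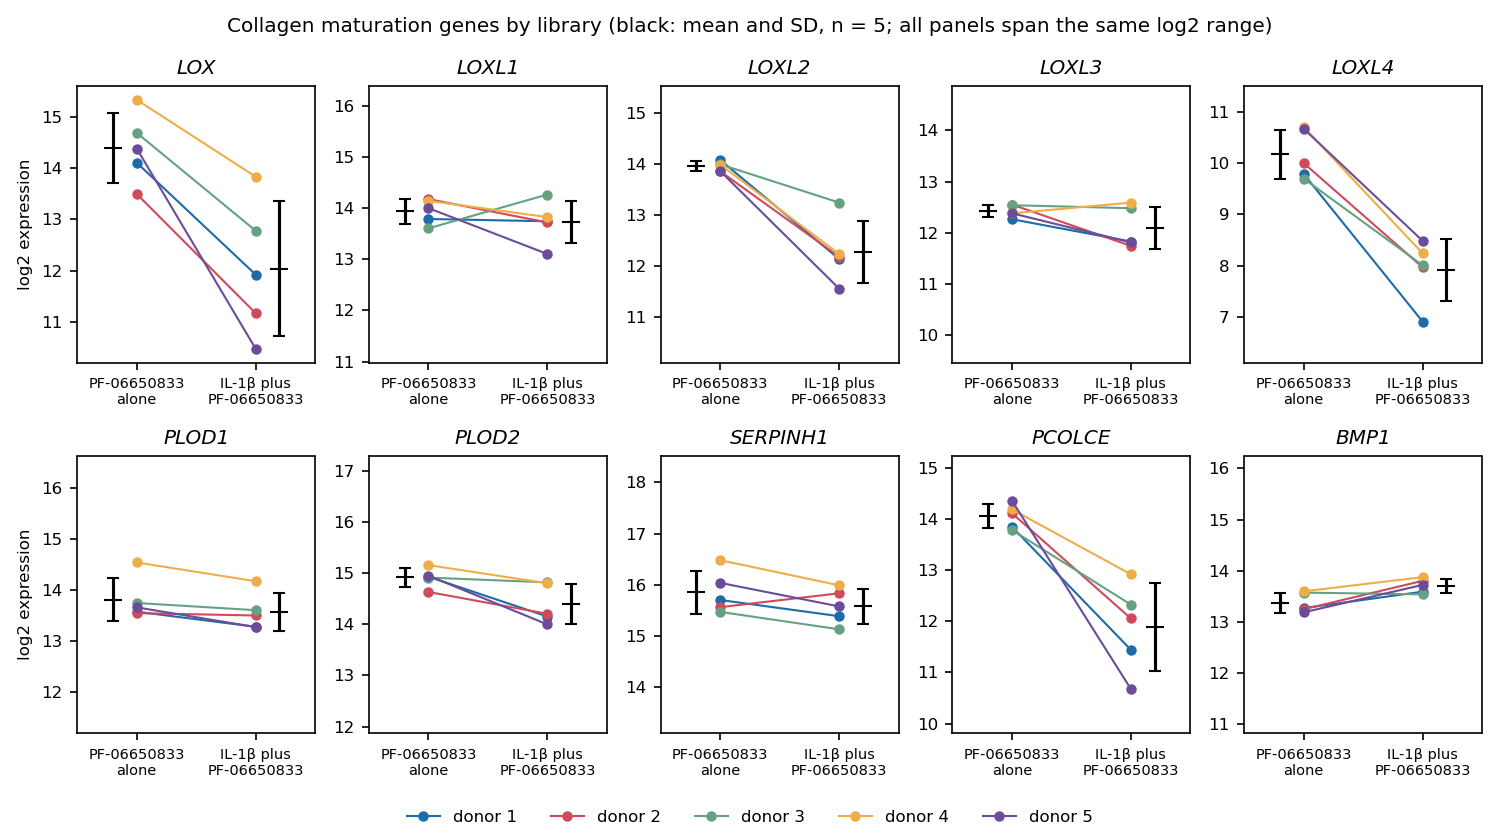
Log2 expression (y axis, variance-stabilized) of the 10 genes in each library, with 1 line per donor from PF alone to PF + IL-1β and the mean and SD (n = 5) in black; each panel has its own level but spans the same log2 range. The lines of LOX, LOXL2, LOXL4 and PCOLCE fall in all 5 donors, as do those of PLOD1 and PLOD2, whose mean changes are below 2-fold.

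LOX is the founding lysyl oxidase, which acts on fibrillar collagens and elastin. Its log2 expression with PF alone was 14.11, 13.49, 14.69, 15.33 and 14.38 in donors 1 to 5. After PF + IL-1β it was 11.92, 11.17, 12.78, 13.83 and 10.47 in the same donors. Each donor was lower with IL-1β, but the groups overlapped, because donor 4 with IL-1β was above donor 2 without it. The mean fell from 14.40 ± 0.68 (SD, n = 5) to 12.03 ± 1.32 (SD, n = 5), giving a log2 fold change of -2.37 (SE 0.57, limma adjusted p = 0.0172). Donor 4 had the highest level in both groups, and with the donor as a replicate block the standard error was 0.30 (adjusted p = 0.00213). *LOX* kept its call when any single library was left out. It lost the call without both libraries of donor 1 (log2 fold change -2.41, limma adjusted p = 0.0737), donor 2 (-2.38, adjusted p = 0.0515) or donor 5 (-1.98, adjusted p = 0.0682).

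LOXL2 is a lysyl oxidase-like enzyme best known for its action on collagen IV of basement membranes. With PF alone *LOXL2* varied little, with 14.07, 13.85, 13.99, 13.99 and 13.86 in donors 1 to 5. In the PF + IL-1β libraries it was 12.14, 12.19, 13.24, 12.24 and 11.56. The groups did not overlap, and donor 3 stood above the other donors that received IL-1β. The mean fell from 13.95 ± 0.10 (SD, n = 5) to 12.27 ± 0.61 (SD, n = 5), giving a log2 fold change of -1.68 (SE 0.24, limma adjusted p = 0.00143).

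*LOXL4*, another lysyl oxidase-like gene, had the smallest adjusted p of the 10 genes and rested on 99.6 to 1651 normalized counts per library. Its log2 expression with PF alone was 9.79, 10.00, 9.70, 10.71 and 10.67 in donors 1 to 5. In the presence of IL-1β it was 6.91, 7.97, 8.01, 8.24 and 8.49. The groups did not overlap, and donor 1 was the lowest of those with IL-1β. The log2 fold change was -2.25 (SE 0.31, limma adjusted p = 0.00103), from a median of 1004 normalized counts to one of 236. Variance stabilization compresses differences at such levels, and on the back-transformed log2 scale the change was -2.36 with a pseudocount of 1 and -2.36 with one of 0.5. The genes most like *LOXL4* over the 10 libraries were *SHROOM4*, *ADD2* and *SSX2IP*, with Pearson correlations of 0.981, 0.981 and 0.980 between their log2 values. These describe 10 libraries from 5 donors that also differ by group.

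*LOXL1*, whose product is linked to elastic fibres, and *LOXL3* did not pass the test. *LOXL1* lay between 13.60 and 14.18 with PF alone and between 13.10 and 14.26 with PF + IL-1β. Its log2 fold change was -0.21 (95% confidence interval -0.65 to 0.22, limma adjusted p = 0.528), with donor 3 higher by 0.66 and the other 4 donors lower. *LOXL3* lay between 12.27 and 12.55 with PF alone and between 11.74 and 12.59 with PF + IL-1β. Its log2 fold change was -0.33 (95% confidence interval -0.71 to 0.05, limma adjusted p = 0.228), with donor 4 higher by 0.21. Both intervals exclude a fall of 2-fold.

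**Figure D2:**
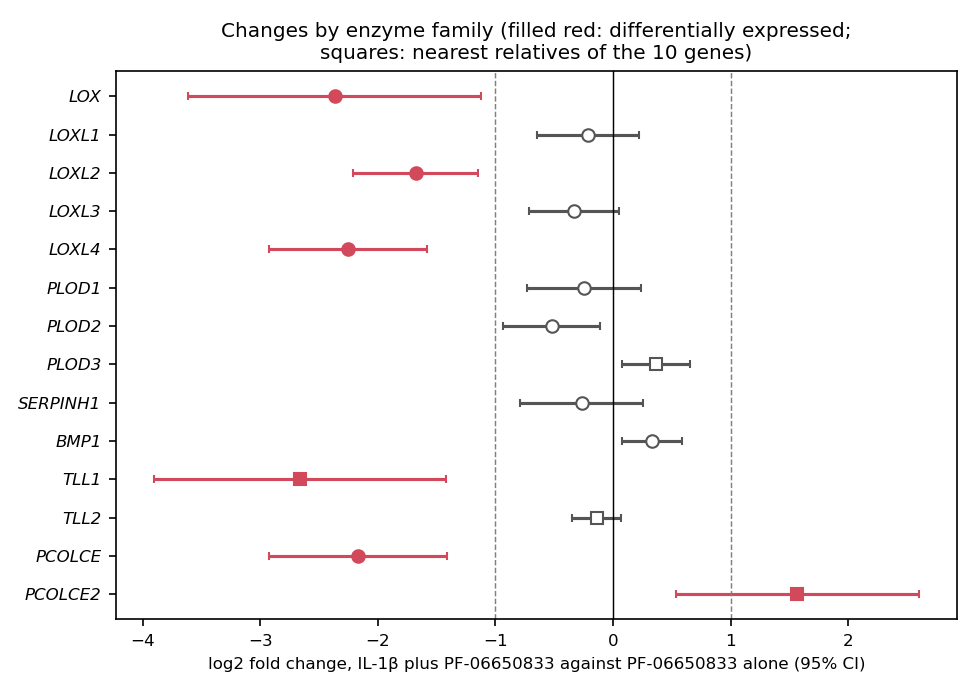
Log2 fold change with its 95% confidence interval from limma (x axis) for the 10 genes (circles) and their 4 nearest relatives (squares), by family; red filled symbols passed both thresholds and dashed lines mark a 2-fold difference. LOX, LOXL2, LOXL4, PCOLCE and TLL1 lie left of the dashed line at -1 and PCOLCE2 lies right of that at 1.

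The make-up of the lysyl oxidase transcripts differed between the groups. Each gene's share was taken of the normalized counts of the 5 genes together, and is compared between groups and not between genes, since transcript length did not enter. The share of *LOX* had a median of 35.9% with PF alone (22.3% to 50.05%) and of 14.98% with PF + IL-1β (8.19% to 36.2%), and was lower in 5 of 5 donors. The share of *LOXL1* had a median of 25.8% (20.1% to 35.7%) and of 51.3% (35.9% to 56.1%), higher in 5 of 5 donors. The groups were barely apart. The level of *LOXL1* itself was lower in 4 of 5 donors and did not pass the test. *LOXL3* also took a larger share, 6.43% to 11.6% against 13.5% to 20.9%, while its own level did not pass the test. The share of *LOXL2* was 19.6% to 31.5% with PF alone and 11.9% to 22.9% with PF + IL-1β, lower in 5 of 5 donors with overlapping ranges. The sum over the 5 genes was between 51756 and 82481 normalized counts with PF alone and between 17093 and 42250 with PF + IL-1β. These shares and sums describe the libraries and carry no test.

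**Figure D3:**
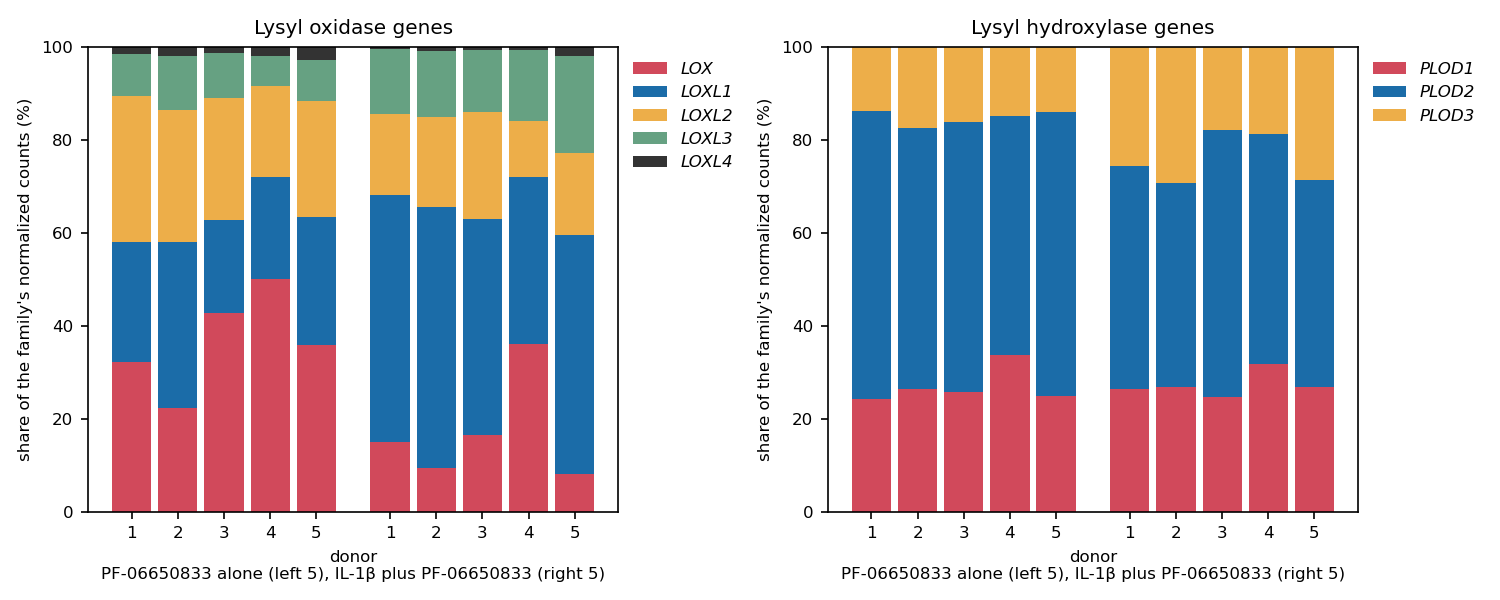
Share (y axis, %) of each gene in the summed normalized counts of the lysyl oxidase genes (left) and of the lysyl hydroxylase genes (right), with 1 bar per library, numbered by donor, for PF alone (left 5 bars of a panel) and PF + IL-1β (right 5). The share of LOXL1 is between 20.1% and 35.7% in the left bars and between 35.9% and 56.1% in the right bars.

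Neither of the lysyl hydroxylase genes *PLOD1* and *PLOD2* passed the test. PLOD2 hydroxylates lysines of the collagen telopeptides, the step that leads to the stable hydroxylysine-derived cross-links. *PLOD2* with PF alone was at 14.93, 14.63, 14.91, 15.16 and 14.95 in donors 1 to 5. After PF + IL-1β it was at 14.15, 14.20, 14.82, 14.80 and 14.00. It was lower in 5 of 5 donors but the groups overlapped, and the log2 fold change of -0.52 did not pass (SE 0.19, limma adjusted p = 0.0860). With the replicate block the adjusted p of *PLOD2* was 0.0379, still below a 2-fold change.

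PLOD1 hydroxylates lysines of the helical part of collagen. *PLOD1* lay between 13.55 and 14.54 with PF alone and between 13.28 and 14.17 with PF + IL-1β, with donor 4 highest in both groups. Its log2 fold change was -0.25 (95% confidence interval -0.74 to 0.24, limma adjusted p = 0.507). With the replicate block the interval was -0.46 to -0.03, and the limma adjusted p was 0.0984. The differences within the 5 donors were all negative and spanned 0.34, the narrowest span of the 10 genes. *PLOD3*, the third lysyl hydroxylase, which also glycosylates hydroxylysine, was not one of the 10 genes. It had a log2 fold change of 0.36 (limma adjusted p = 0.0872) and was higher in 5 of 5 donors. Within the counts of the *PLOD* genes the share of *PLOD3* was 13.8% to 17.4% with PF alone and 17.97% to 29.2% with PF + IL-1β, and that of *PLOD2* was lower in 5 of 5 donors.

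*SERPINH1*, with 35810 to 91292 normalized counts per library, showed no difference that passed the test. It lay between 15.47 and 16.48 with PF alone and between 15.13 and 15.99 with PF + IL-1β. The log2 fold change was -0.27 (95% confidence interval -0.79 to 0.26, limma adjusted p = 0.501), with donor 2 higher by 0.27 and the other 4 donors lower.

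Of the procollagen C-proteinase and its enhancer, the enhancer fell. *PCOLCE* with PF alone was at 13.84, 14.11, 13.78, 14.18 and 14.35 in donors 1 to 5. In the PF + IL-1β libraries it was at 11.44, 12.05, 12.33, 12.92 and 10.68. The groups did not overlap, and donor 5, the highest without IL-1β, was the lowest with it. The mean fell from 14.05 ± 0.24 (SD, n = 5) to 11.88 ± 0.86 (SD, n = 5), giving a log2 fold change of -2.17 (SE 0.34, limma adjusted p = 0.00226).

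*BMP1*, the proteinase that PCOLCE enhances and that also activates the LOX proenzyme, was at 13.27, 13.25, 13.58, 13.60 and 13.19 with PF alone. In the presence of IL-1β it was at 13.59, 13.81, 13.54, 13.88 and 13.73. It was higher in 4 of 5 donors, with donor 3 lower by 0.03 and the groups overlapping. Its log2 fold change was 0.33 (95% confidence interval 0.07 to 0.59, limma adjusted p = 0.0809), and that interval lies below a 2-fold rise.

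Differences taken within a library are little affected by how the library was scaled, so 3 pairs of genes were compared in this way, chosen after their values were seen and without a test. The log2 value of *PCOLCE* minus that of *BMP1* lay between 0.21 and 1.17 with PF alone and between -3.05 and -0.96 with PF + IL-1β, so the groups did not overlap. For *PLOD2* minus *PLOD3* the ranges were 1.69 to 2.16 and 0.59 to 1.67, which were barely apart. For *LOX* minus *LOXL1* they were -0.68 to 1.19 and -2.63 to 0.01, and these overlapped. All 3 differences were lower with IL-1β in each of the 5 donors.

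**Figure D4:**
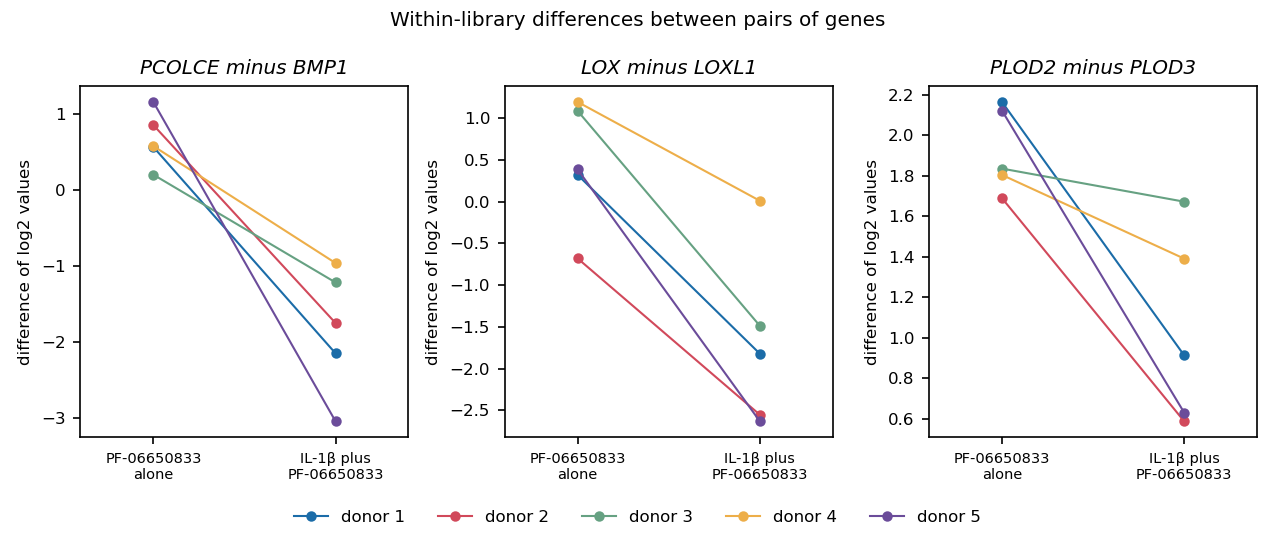
Difference between the log2 values of 2 genes in the same library (y axis) for 3 pairs, with 1 line per donor from PF alone to PF + IL-1β. PCOLCE minus BMP1 lies between 0.21 and 1.17 with PF alone and between -3.05 and -0.96 with PF + IL-1β. Transcript length did not enter, so the groups are compared and the position of 0 has no meaning of its own.

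The size of the difference varied among the donors. Donor 5 had the most negative difference between its libraries for 6 of the 10 genes, namely *LOX* (-3.91), *LOXL1* (-0.90), *LOXL2* (-2.29), *PLOD1* (-0.38), *PLOD2* (-0.95) and *PCOLCE* (-3.68). Donor 3 had the least negative or most positive difference for 4 genes, among them *LOXL2* (-0.75) and *LOXL4* (-1.69). For *LOX* (-1.501) and *PCOLCE* (-1.27) the smallest fall was that of donor 4. The median difference over the 10 genes was -0.92 in donor 5 and -0.24 in donor 3, with the other donors between them. Over all tested genes the median difference of every donor lay between -0.0068 and 0. With 1 library per donor and group, differences between donors were not tested.

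Of the 3 nearest relatives of the procollagen C-proteinase and its enhancer, *TLL1* was lower, *PCOLCE2* higher and *TLL2* did not pass the test. *TLL1*, which encodes a tolloid-like proteinase related to BMP1, was at 9.62, 11.45, 10.11, 10.88 and 10.89 with PF alone. After PF + IL-1β it was at 6.53, 9.63, 8.51, 6.76 and 8.22. It fell in 5 of 5 donors, although donor 2 with IL-1β was level with donor 1 without it, by a log2 fold change of -2.66 (SE 0.56, limma adjusted p = 0.00978). *TLL2* had a log2 fold change of -0.14 (limma adjusted p = 0.368).

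*PCOLCE2*, the second enhancer gene, moved in the direction opposite to *PCOLCE*. It was at 9.98, 8.80, 8.75, 9.17 and 9.73 with PF alone and at 11.34, 11.52, 9.33, 10.10 and 11.98 with PF + IL-1β. The log2 fold change was 1.57 (SE 0.47, limma adjusted p = 0.0451), higher in 5 of 5 donors with overlapping groups. This call was near the threshold and was lost in 7 of the 10 fits that left out 1 library, namely those without donor 2, 3, 4 or 5 with PF alone or without donor 1, 2 or 5 with PF + IL-1β. In these 7 fits the log2 fold change was between 1.29 and 1.68, with an adjusted p of up to 0.108 from limma. Of all 29 alternative fits 14 lost the call, among them 4 of the 5 without both libraries of a donor. The highest limma adjusted p among the 29 was 0.197. With the replicate block the adjusted p of *PCOLCE2* was 0.00945.

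Beside the 10 genes, 58 genes that modify, carry, cleave, bind or make up fibrillar collagen and elastin were followed by lists according to their roles. Of the 51 that could be tested, 10 were differentially expressed, 3 higher and 7 lower with PF + IL-1β, including *TLL1* and *PCOLCE2*. The median log2 fold change of the 51 was -0.19. Over all tested genes 6.68% were differentially expressed, 3.11% higher and 3.57% lower. The counts of the single lists below are to be read beside the same shares. With the replicate block 13 of the 51 were differentially expressed, 3 higher and 10 lower, against 8.26% of all tested genes.

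**Figure D5:**
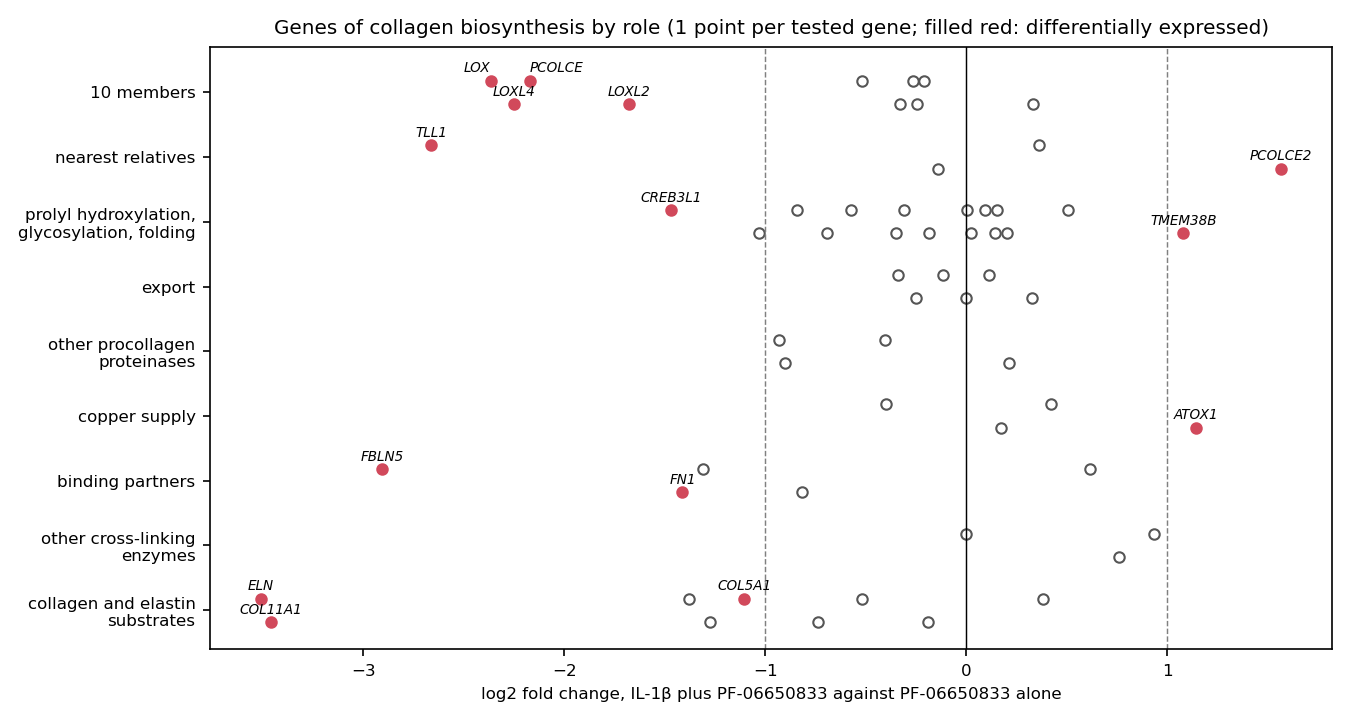
Log2 fold change (x axis) of every tested gene of collagen biosynthesis, with 1 point per gene in rows by role; red filled points passed both thresholds and are named, and dashed lines mark a 2-fold difference. The named points of the binding partners and of the collagen and elastin substrates all lie left of -1, and the export genes lie between -0.34 and 0.33.

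Inside the cell, 2 of 16 genes for prolyl hydroxylation, glycosylation and folding of procollagen passed the test. *CREB3L1*, a transcription factor that activates collagen genes, fell from 13.27 ± 0.32 (SD, n = 5) to 11.80 ± 0.56 (SD, n = 5), giving a log2 fold change of -1.47 (limma adjusted p = 0.00345), and its groups did not overlap. *TMEM38B*, which encodes an ion channel of the endoplasmic reticulum, rose by 1.08 (limma adjusted p = 0.00755), and without the library of donor 4 with PF + IL-1β the rise was 0.91, below the minimum fold change. Of the prolyl hydroxylases, *P3H2* passed only with the replicate block (log2 fold change -1.03, limma adjusted p = 0.234 without and 0.0491 with the block). Of the same 16 genes, *P4HA3* (log2 fold change -0.84, limma adjusted p = 0.00169) and *FKBP10* (-0.70, adjusted p = 0.0350) were lower by less than 2-fold. Of 6 tested genes for the export of procollagen 0 passed both thresholds, and 2 had an unadjusted p below 0.05 by limma. Among them was *SEC23A*, with a log2 fold change of -0.34 (limma adjusted p = 0.0412). Of 4 tested N-propeptide and other procollagen proteinases 0 passed both thresholds, and 2 had an unadjusted p below 0.05 by limma. Among these was *ADAMTS2*, with a log2 fold change of -0.90 (limma adjusted p = 0.0184), lower in 5 of 5 donors with groups that did not overlap.

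Of 4 genes that supply copper, the cofactor of lysyl oxidases, 1 passed. *ATOX1*, a copper chaperone, was at 10.63, 10.65, 10.01, 9.85 and 10.08 with PF alone. In the PF + IL-1β libraries it was at 11.65, 11.52, 10.84, 11.49 and 11.44. The groups did not overlap, and the log2 fold change was 1.14 (SE 0.20, limma adjusted p = 0.00340). *ATP7A*, the pump that loads copper onto secreted enzymes, had a log2 fold change of 0.42 (limma adjusted p = 0.0455), below the minimum fold change.

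Of 5 genes whose products bind lysyl oxidases or BMP1, 2 fell past both thresholds. *EFEMP2* (log2 fold change -0.82, limma adjusted p = 0.0134) was lower by less than 2-fold. *FBLN5*, whose product brings LOXL1 to elastic fibres, fell from 8.09 ± 0.69 (SD, n = 5) to 5.18 ± 0.82 (SD, n = 5), giving a log2 fold change of -2.91 (limma adjusted p = 0.00162), with groups that did not overlap. Its level is low, and on the back-transformed log2 scale the change was -3.91 with a pseudocount of 1 and -3.97 with one of 0.5. *FN1*, the fibronectin gene, had a log2 fold change of -1.41 (limma adjusted p = 0.0369) and was lower in 5 of 5 donors. The call of *FN1* was lost in 7 of the 10 fits without 1 library. These were the fits without donor 1, 2, 4 or 5 with PF alone or donor 1, 2 or 5 with PF + IL-1β. Their log2 fold changes were -1.502 to -1.20, with a limma adjusted p of up to 0.104. Of all 29 alternative fits 11 lost the call of *FN1*, among them 3 of the 5 without both libraries of a donor. The highest limma adjusted p among the 29 was 0.158. Of 3 other cross-linking enzymes 0 passed, with 2 at an unadjusted p below 0.05 by limma. Among them was *PXDN*, the peroxidasin gene, with a log2 fold change of 0.76 (limma adjusted p = 0.0244).

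Among the substrates of the cross-linking enzymes, 8 of 9 tested genes had a negative log2 fold change, against 9124 of all 17992 tested genes. Of these 9 genes of fibrillar collagens and elastin 3 fell, with a median log2 fold change of -1.10. *COL3A1* was not found by symbol, and *COL2A1* and *COL11A2* were too low to be tested. *COL11A1*, a minor fibrillar collagen, fell by 3.46 on the log2 scale (SE 0.59, limma adjusted p = 0.00344). *ELN*, the elastin gene, fell by 3.51 (SE 0.80, limma adjusted p = 0.0137), and lost the call without both libraries of donor 1 (adjusted p = 0.0849) or donor 5 (adjusted p = 0.0801). On the back-transformed log2 scale the change of *ELN* was -4.37 with a pseudocount of 1 and -4.42 with one of 0.5.

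*COL5A1*, a collagen of the fibril core, had a log2 fold change of -1.10 at an adjusted p of 0.0468 from limma. Its call was lost in 7 of the 10 fits without 1 library. These were the fits without donor 1, 3, 4 or 5 with PF alone or donor 1, 2 or 5 with PF + IL-1β. Their log2 fold changes were -1.14 to -0.92, with a limma adjusted p of up to 0.116. Of all 29 alternative fits 13 lost the call of *COL5A1*, among them 4 of the 5 without both libraries of a donor. The highest limma adjusted p among the 29 was 0.170. The main chains of tendon collagen, *COL1A1* (log2 fold change -1.38, limma adjusted p = 0.0682) and *COL1A2* (-1.28, adjusted p = 0.0614), did not pass, but passed with the replicate block, at adjusted p-values of 0.0147 and 0.0169. Of the 26 alternatives without the block, 6 called *COL1A1* and 7 called *COL1A2* lower, among them the fit without the library of donor 4 with PF + IL-1β (log2 fold changes -1.71 and -1.57, limma adjusted p = 0.0168 and 0.0172). Within a library, *LOX* minus *COL1A1* lay between -5.16 and -3.38 with PF alone and between -6.45 and -4.43 with PF + IL-1β. *PCOLCE* minus *COL1A1* lay between -5.32 and -4.29 and between -5.96 and -4.88. In both pairs the ranges overlapped, and the difference was lower with IL-1β in 5 of 5 donors. These pairs too were chosen after their values were seen and carry no test.

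Marker genes of tendon and of other cell types were read from the same libraries. Of 8 tested tenocyte markers 4 were lower with PF + IL-1β and 0 higher, against 3.57% and 3.11% of all tested genes. Among those lower was the tendon transcription factor *SCX* (log2 fold change -3.24). *DCN* of the same list went the other way (log2 fold change 1.01, limma adjusted p = 0.268) and was higher in 5 of 5 donors. *TNMD* was at 0 in all 10 libraries, and *COL3A1* was not found by symbol. The summed normalized counts of the tenocyte markers were 885851 to 1458820 with PF alone and 234755 to 983732 with PF + IL-1β. Of 5 tested mural and muscle markers 3 were lower, with sums of 3703 to 36801 and 4239 to 13102. Leukocyte markers summed to 61.3 to 1768 (median 119) with PF alone and to 171 to 1944 (median 1456) with PF + IL-1β. Most of this was *CD14* and *CD68*, with *CD68* higher. *CD14* had a log2 fold change of 2.66 (limma adjusted p = 0.340) and was higher in 4 of 5 donors. It was at 0 in donors 3, 4 and 5 with PF alone and in donor 3 with PF + IL-1β. *PTPRC* reached at most 3.09 normalized counts, and *CD3E*, *CD3D*, *AIF1* and *MS4A1* were at 0 throughout. Endothelial markers summed to 16.3 to 51.5 and 5.12 to 30.7, with 0 of 5 tested called and 2 at an unadjusted p below 0.05 by limma. Of 4 tested epithelial markers 1 was lower, *CDH1*, with sums of 553 to 1589 and 148 to 475. *CDH1* held most of each sum except in donors 2 and 5 with PF + IL-1β, where *CLDN4* held 73.1% and 65.6%. *CLDN4* had a log2 fold change of 0.75 (limma adjusted p = 0.325) and was higher in 5 of 5 donors, while *EPCAM* and *KRT5* were at 0. The part of these markers in the changes of the 10 genes was not tested.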

How the data were processed

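RNA from 10 libraries was sequenced as paired-end reads. Per the study's methods and processing notes, the authors checked reads with FastQC (version 0.11.9), quantified them on the RefSeq transcriptome of EquCab3.0 with Salmon (version 1.8) with GC-bias correction, imported them with tximport and used DESeq2 (version 1.36). The authors deposited log2 values, variance-stabilized and normalized between libraries, as recognised from the values, whose lowest value is shared by all libraries. All 10 columns were used.

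Groups and donors came from the labels, and libraries of the same tenocyte line were paired. Deviations from the group means correlated across genes by 0.367 to 0.506 within donors, and by -0.107 on average between donors. Such deviations cancel within a group, which ties the between-donor value to the within-donor ones, so it is no separate check. Testing covered the 17992 genes whose value exceeded that of 0 reads in 5 or more libraries. They were fitted in R (version 4.3.3) by limma (version 3.58.1), using a mean-variance trend and no donor term, as the study names none. A fit with the donor as a replicate block was the alternative. Normalized counts came from inverting the variance-stabilizing transformation. The fit was tested on simulated counts drawn without donor effects, so that test does not cover the pairing. The 5 libraries of a group come from separate donors, so p-values set the difference against the spread between donors. The fit without a donor term leaves the pairing out, and only the replicate block takes it into account.

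The members and lists were chosen with earlier results of these data known. The genes named are the 10 members, their 4 nearest relatives, the differentially expressed genes of the other lists (at most 12, by adjusted p), and the 3 genes most like the member with the smallest adjusted p. *P3H2*, *P4HA3*, *FKBP10*, *SEC23A*, *ADAMTS2*, *EFEMP2*, *ATP7A*, *PXDN*, *COL1A1*, *COL1A2*, *IL6*, the marker genes and the pairs were added after their values were seen. All 10 members matched a RefSeq gene table of another horse assembly, used for names only, so no positions or sequences are given.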

Additional observations from a re-analysis of the deposited data

Results flagged for a closer look

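The 10 genes, their nearest relatives and the differentially expressed genes of the other lists gave 44 sets of 5 libraries. These were searched for a library that stood apart from the rest of its set. There were 2, where chance gives about 2.2. *PLOD1* was at 14.54 for donor 4 with PF alone, against 13.55 to 13.75 in the other 4 donors. *ATOX1* was at 10.84 for donor 3 with PF + IL-1β, against 11.44 to 11.65 in the other 4.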

How the results depend on the processing

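The directions of all 10 genes held under the 29 alternatives, and *LOXL2*, *LOXL4* and *PCOLCE* were called lower in each of them. The number called was between 3 and 5, and 0 were called higher. *LOX* (log2 fold change -2.37, limma adjusted p = 0.0172) was not called at an adjusted p below 0.01, nor without donor 1, 2 or 5; with any library or donor omitted its log2 fold change ranged from -2.82 to -1.98. *PLOD2* (-0.52) was called only with the replicate block when no minimum fold change was set. The cause of these changes was not tested. Over all tested genes, 1202 were called, against 2782 without a minimum fold change, 719 at an adjusted p below 0.01, 3996 with the replicate block and any fold change, 1809 with the replicate block on back-transformed values, and 762 to 1422 with a library or donor left out. Of the other collagen biosynthesis genes, 10 (3 higher, 7 lower) became 17 (5 higher, 12 lower) without a minimum fold change, 6 (4 lower) at an adjusted p below 0.01, and 23 (5 higher, 18 lower) when the replicate block was used at any fold change. Leaving out a library or donor gave 6 to 13 of them, 1 to 3 higher and 4 to 11 lower. Without the library of donor 4 with PF + IL-1β, 11 were lower. Quantile normalization and centring on the median moved the median of all genes only to -0.011 and 0.024 and changed no call of the 10 genes. The replicate block changed no other call of the named genes beyond those given. The table keeps no reads per library, so the depth behind the low values of *LOXL4* is known only as normalized counts.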
